A study of Caenorhabditis elegans with 6 samples.

Results

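Cuticle collagen genes were taken by symbol from the acetylation tables of the nematode Caenorhabditis elegans: every gene whose symbol begins with col-, and 14 collagen genes named for body shape (dpy-2, dpy-3, dpy-5, dpy-7, dpy-8, dpy-10, dpy-13, dpy-17, rol-6, sqt-1, sqt-2, sqt-3, bli-1 and bli-2). The rule gave 123 genes with an assigned peak in at least 1 of the marks, of 14384 genes in all, and 104 collagen genes had one in both marks. The H3K18ac table held 111 of them with 139 peaks, and the H3K27ac table held 116 with 141 peaks.

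Acetylation of histone H3 at lysine 18 (H3K18ac) and lysine 27 (H3K27ac) was measured by chromatin immunoprecipitation and sequencing of whole worms labelled as strain N2, genotype wild-type. They were grown at 20 °C on E. coli HT115 from the egg until the L4 or young adult stage and fixed in 1% formaldehyde for 30 min. In the cco-1 RNAi groups 50% of the bacterial food carried the RNAi clone against cco-1, which encodes part of the last complex of the mitochondrial respiratory chain, and the rest carried the empty vector. The comparison group ate the empty vector alone, and by the series design both carried an hsp-6::GFP reporter of mitochondrial stress. Each mark had 1 cco-1 RNAi library and 1 empty vector library, so every difference below is between single libraries with no replicate check and no test.

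The cuticle is the collagen-rich coat that the underlying epidermis, called hypodermis, secretes and replaces at each moult. Its collagens are short proteins with Gly-X-Y repeats that are hydroxylated and assembled as trimers before secretion. They are then cut at their ends, and are crosslinked outside the cell. Many cuticle collagen genes are transcribed in a pulse before a moult, and each stage uses its own set. Acetylation of H3 at both lysines is deposited by enzymes of the CBP/p300 family and marks active promoters and enhancers.

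Values are CPM, the count in a peak per 1000000 counts in all nuclear peaks of its library. The totals were 8948860 counts with cco-1 RNAi and 8293828 with empty vector for H3K18ac, and 11593321 and 11556404 for H3K27ac. A gene with several peaks takes the peak with the larger mean CPM. A fold is cco-1 RNAi over empty vector with an exact (Clopper-Pearson) 95% interval, which covers counting error only, and a gene is called lower or higher when its fold reaches 1.5 in that direction. In whole worms, fewer cells of a type and less acetylation per cell cannot be told apart. The median log2 ratio over all genes was -0.04 for H3K18ac and -0.17 for H3K27ac. At the cco-1 locus, the target of the RNAi, counts were 8.32-fold higher in H3K18ac (8.01 to 8.63) and 3.15-fold higher in H3K27ac (3.08 to 3.22); these are DNA counts and do not measure the knockdown. The tables end on chromosome X at 7.89 Mb for H3K18ac and 12.9 Mb for H3K27ac.

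RefSeq (WBcel235) lists 173 genes that match the rule, 3 of them pseudogenes, and 50 of the 173 had no row in either table. Within the covered genome, 111 of 157 collagen genes (70.7%) had an H3K18ac row and 116 of 165 (70.3%) an H3K27ac row, against 37.1% and 38.2% of all coding genes. Of the collagen genes without a row in the covered range, 32 of 46 for H3K18ac and 36 of 49 for H3K27ac lay under a peak that the authors had assigned to another feature. Counting any peak over the gene, an alternative chosen after seeing the data, 143 of 157 collagen genes (91.1%) carried H3K18ac and 152 of 165 (92.1%) carried H3K27ac, against 35.6% and 38.3% of other coding genes of like length. Like length means within a range set by the collagen genes, 956 to 2951 bp for H3K18ac and 953 to 2843 bp for H3K27ac.

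Acetylation at the collagen genes lay in the gene body and towards its end rather than at its start. The strongest H3K18ac peak lay inside the gene or over its end, leaving the start uncovered, in 92 of 111 collagen genes (82.9%), against 23.3% of all genes and 30.2% of 2976 other coding genes of like length. For H3K27ac the share was 93 of 116 (80.2%), against 23.8% of all genes and 31.5% of 3167 genes of like length. The peak covered the start in 13 collagen genes (11.7%) for H3K18ac, against 38.7% of all genes, and in 19 (16.4%) for H3K27ac, against 40.4%. No collagen gene had its strongest peak downstream of the gene, and 6 had their strongest H3K18ac peak upstream. The median peak centre fell at 0.594 of the gene length in H3K18ac and 0.571 in H3K27ac, against 0.016 and 0.049 over all genes. Collagen genes are short, with a median length of 1186 bp among those in the H3K18ac table. The genes of like length were longer at the median, 1796.5 bp for H3K18ac and 1756 bp for H3K27ac. In H3K18ac the strongest collagen peaks had a median width of 853 bp, against 584 bp for all genes and 575.5 bp at like length. The contrasts along the gene thus share a range of lengths but are not matched for length or peak width. The tables give gene bounds and strand but no exons, so exons and introns were not separated.

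**Figure D1:**
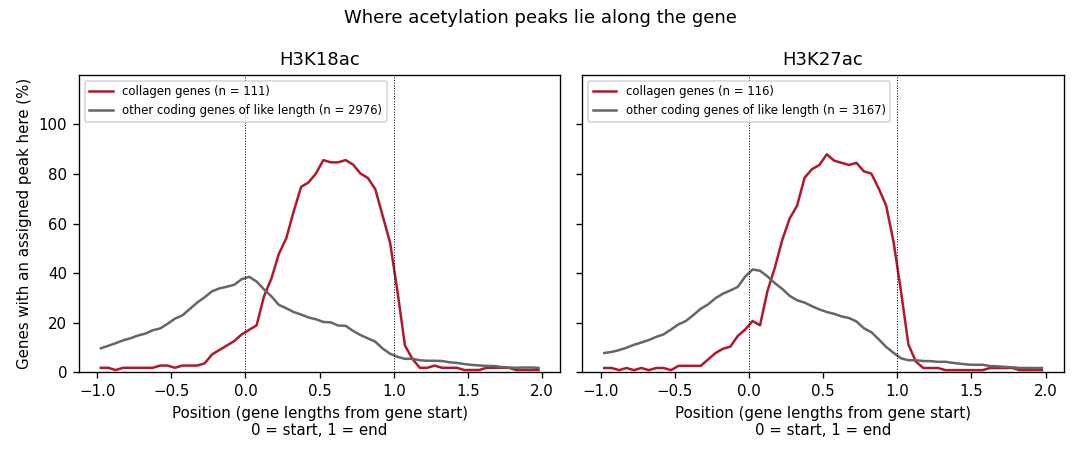
Share of genes with an assigned peak (vertical axis, %) at each position along the gene, in gene lengths from the start at 0 to the end at 1, for collagen genes (red) and other coding genes of like length (grey), with 1 panel per mark. The collagen curve peaks in the gene body at 85.6% for H3K18ac and 87.9% for H3K27ac, while the other genes peak at the start at 38.5% and 41.5%. The grey genes share the range of collagen gene lengths but are longer at the median (1796.5 bp against 1186 bp for H3K18ac).

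In the profile along the gene, 52.3% of collagen genes had an H3K18ac peak at the end of the gene and 17.1% had one at the start, against 7.46% and 38.5% of other coding genes of like length. H3K27ac gave 52.6% at the end and 20.7% at the start, against 7.83% and 41.5%. With any peak over the gene counted, the midpoint of the gene was covered in 73.2% of collagen genes for H3K18ac and 75.8% for H3K27ac, against 9.75% and 11.9% of other coding genes of like length.

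Without stress the collagen genes carried strong acetylation. In empty vector their median was 128 CPM in H3K18ac, against 43.2 CPM over all genes, and 85.4 CPM in H3K27ac, against 37.9 CPM. Part of this goes with wider peaks. Per kb of peak the medians were 158 CPM against 67.0 CPM in H3K18ac and 101 CPM against 61.9 CPM in H3K27ac. With cco-1 RNAi the collagen medians were 102 CPM and 85.0 CPM, against 41.3 CPM and 33.4 CPM over all genes. In empty vector 90 of 111 collagen genes (81.1%) exceeded the median gene in H3K18ac and 96 of 116 (82.8%) in H3K27ac. The upper tail differed between the marks, with 51 collagen genes (45.9%) among the top 10% of genes in H3K18ac and 20 (17.2%) in H3K27ac. The range among collagen genes was wide, 8.32 to 415 CPM in H3K18ac and 6.92 to 354 CPM in H3K27ac.

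**Figure D2:**
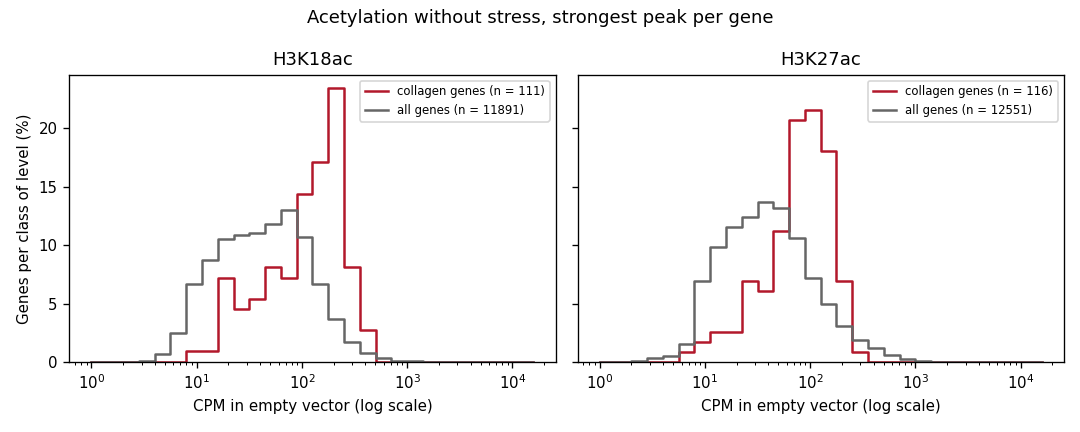
Distribution of acetylation in empty vector, as the percentage of genes (vertical axis) in each class of CPM of the strongest peak (horizontal axis, log scale), for collagen genes (red) and all genes (grey), with 1 panel per mark. The collagen genes sit to the right of all genes, with medians of 128 CPM against 43.2 CPM in H3K18ac and 85.4 CPM against 37.9 CPM in H3K27ac.

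The strongest collagen gene in both marks was col-71 (WBGene00000647), with a peak at chrII:3500248-3502872 (ce11) over the start and most of the gene. It had 345 CPM with cco-1 RNAi and 415 CPM with empty vector in H3K18ac, where it ranked 93 of 11891 genes, and 308 CPM against 354 CPM in H3K27ac. In H3K18ac the next strongest were dpy-13 (263 CPM with cco-1 RNAi, 381 CPM with empty vector), col-106 (333 and 359 CPM), col-50 (241 and 353 CPM), col-51 (219 and 338 CPM) and col-103 (244 and 313 CPM). All 6 had fewer CPM with cco-1 RNAi, as did col-45 (198 and 306 CPM), col-87 (210 and 298 CPM), col-42 (174 and 291 CPM) and col-39 (211 and 288 CPM), which complete the 10 strongest. In H3K27ac the list after col-71 ran col-106, dpy-17, col-87, dpy-13, col-103, col-51, col-50, col-45 and col-111, and 4 of these 10 had more CPM with cco-1 RNAi. Those were col-106 (270 and 242 CPM), dpy-13 (227 and 213 CPM), col-103 (257 and 206 CPM) and col-111 (227 and 173 CPM). Both lists were ranked on the empty vector value, which is also the denominator of the fold, so the choice can lean towards lower folds. No share over equally ranked genes of all kinds stands beside these directions.

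With cco-1 RNAi, H3K18ac at the collagen genes was lower by a modest amount in most of them. The log2 ratio was below 0 in 92 of 111 collagen genes (82.9%), against 53% of all genes. Its median was -0.29, with quartiles of -0.49 and -0.10, against a median of -0.04 over all genes. Few genes reached the threshold: 18 of 111 (16.2%) were at least 1.5-fold lower, against 13.1% of all genes, and 2 (1.80%) were at least 1.5-fold higher, against 8.04%. The exact interval of the fold lay below 1 in 78 collagen genes (against 33.3% of all genes), above 1 in 9 (against 28.7% of all genes), and included 1 in 24. The lower share thus came near the background share, while the higher share was below it. Among peaks of at least median strength 15 of 94 collagen genes were lower, against 10.9% of all such genes, and below it 3 of 17, against 16.1%. Unscaled counts gave 10 lower and 4 higher, but the shares of all genes given above are for scaled counts and do not apply to these. The 37 strongest collagen genes, from 165 to 380 CPM in the mean of the libraries, had a median log2 ratio of -0.33, whereas the 839 genes of all kinds in that range had 0.14. The 37 of middle strength had -0.31, against 0.028 over 2504 genes in that range, and the 37 weakest had -0.18, against -0.06 over 8280 genes.

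H3K27ac at the collagen genes had a median ratio close to that over all genes when peaks of every strength were pooled. The log2 ratio was below 0 in 77 of 116 collagen genes (66.4%), against 62.4% of all genes, and its median was -0.16, against -0.17 over all genes. At least 1.5-fold lower were 17 (14.7%), against 21.9% of all genes, and at least 1.5-fold higher were 2 (1.72%), against 8.72%. The exact interval of the fold lay below 1 in 61 collagen genes (against 47.3% of all genes) and above 1 in 23 (against 26.2% of all genes). Below the median peak strength 7 of 18 collagen genes were lower, against 35.7% of all genes of that strength, and at or above it 10 of 98 were, against 11.5%. Compared within the same range of strength, the collagen medians were below those of all genes: -0.42 against -0.30 for the 39 weakest, -0.094 against -0.0027 for the 38 of middle strength, and -0.024 against 0.085 for the 39 strongest. Centring on the median of all peaks or TMM scaling left 8 lower and 4 higher, and turned the median to 0.028 and 0.011. Either scaling shifts the ratios of all genes too, so the shares and median of all genes given above do not apply to these values.

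Taking the strongest peak over each RefSeq gene, whichever gene the table names, gave more lower calls in both marks. In H3K18ac 83.2% of the 143 collagen genes with such a peak were below 0, against 50.5% of all coding genes with a peak, 25 (17.5%) were lower, against 11.4%, and 3 (2.098%) were higher, against 7.19%. In H3K27ac 109 of 152 (71.7%) were below 0, against 57.3%, 28 (18.4%) were lower, against 18.7%, and 1 (0.658%) was higher, against 9.42%. The median log2 ratio of the collagen genes was -0.31 in H3K18ac, against -0.0076 over all coding genes with a peak, and -0.23 in H3K27ac, against -0.095. Among other coding genes of like length with a peak, 14.1% were lower and 7.23% higher in H3K18ac, at a median of -0.020. In H3K27ac 21.9% of them were lower and 9.36% higher, at a median of -0.134.

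**Figure D3:**
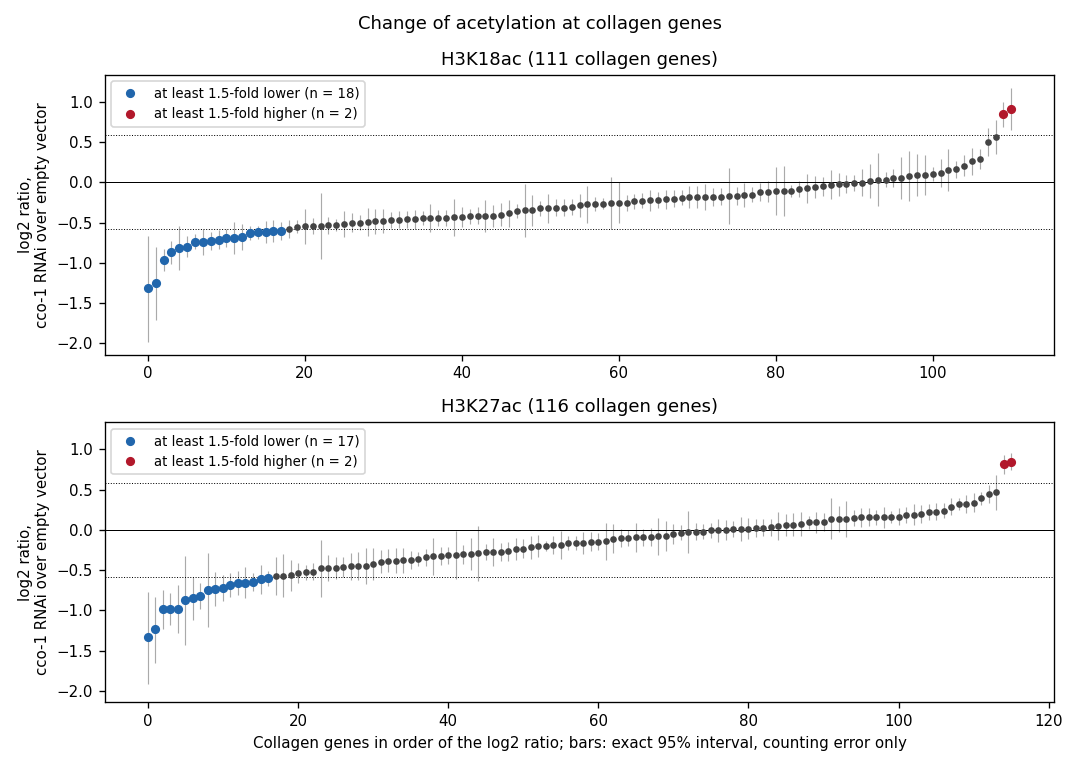
Log2 ratio, cco-1 RNAi divided by empty vector (vertical axis), for each collagen gene in order of its value (horizontal axis), with exact 95% intervals from counting error, 1 panel per mark. Dotted lines mark 1.5-fold; 18 genes in H3K18ac and 17 in H3K27ac lie at or below the lower line (blue) and 2 in each at or above the upper line (red), and most H3K18ac points lie below 0.

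Annular furrow collagens (dpy-2, dpy-3, dpy-7, dpy-8, dpy-9 and dpy-10), which shape the circular grooves of the cuticle and are needed together for them, were not uniform. In H3K18ac 4 of the 6 were measured, 1 was lower (against 13.1% of all genes) and none higher, with a median log2 ratio of -0.14, against -0.04 over all genes. In H3K27ac 5 were measured, 2 were lower (against 21.9%) and none higher, with a median of -0.52, against -0.17.

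The gene dpy-7 (WBGene00001069, chrX:7536460-7537792, minus strand) was lower in both marks. Its H3K18ac peak, inside the gene at chrX:7536575-7537371, held 83.5 CPM with cco-1 RNAi and 128 CPM with empty vector, a fold of 0.654 (0.595 to 0.719). A separate H3K18ac peak over its start held 40.9 CPM and 43.2 CPM, a fold of 0.948 (0.817 to 1.10), so the start and the body of dpy-7 differed. In H3K27ac a single peak spanned the start and the body, with 93.6 CPM and 147 CPM, a fold of 0.638 (0.591 to 0.689).

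The other furrow genes varied in level and direction. dpy-2 had an H3K27ac peak inside the gene with 18.4 CPM with cco-1 RNAi and 36.4 CPM with empty vector, a fold of 0.504 (0.426 to 0.596), and had no H3K18ac row of its own. The H3K18ac peak over dpy-2, assigned to T14B4.10, held 14.5 CPM and 18.4 CPM, a fold of 0.787 (0.618 to 1.001). dpy-3, the strongest of them, held 209 CPM and 233 CPM in H3K18ac, a log2 ratio of -0.16, and 118.9 CPM and 170 CPM in H3K27ac, a log2 ratio of -0.52. For dpy-8 the marks took opposite signs, with 75.1 CPM against 62.7 CPM in H3K18ac and 49.3 CPM against 64.2 CPM in H3K27ac. dpy-9, a furrow collagen gene outside the selection rule, had log2 ratios of -0.12 in H3K18ac and -0.06 in H3K27ac. dpy-10 had no row of its own, and the peak over it, assigned to T14B4.14, held 24.7 CPM and 27.9 CPM in H3K18ac and 18.9 CPM and 38.1 CPM in H3K27ac.

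Other collagens with Dpy, Rol or Sqt mutant phenotypes, which set body length and the helical or straight form of the worm, were below 0 in most cases and seldom past the threshold. In H3K18ac 9 of 12 were measured and none was past 1.5-fold, at a median log2 ratio of -0.32, and in H3K27ac 2 of 10 were lower, against 21.9% of all genes, at a median of -0.23. dpy-13 carried a peak over its whole gene (chrIV:4235263-4236766 in H3K18ac) with 263 CPM with cco-1 RNAi and 381 CPM with empty vector, a fold of 0.691 (0.655 to 0.729). In H3K27ac the same gene held 227 CPM and 213 CPM, a fold of 1.07 (1.01 to 1.13). dpy-17 showed the reverse, with 182 CPM and 183 CPM in H3K18ac, a fold of 0.994 (0.926 to 1.07), and 144 CPM and 219 CPM in H3K27ac, a fold of 0.659 (0.619 to 0.701). An upstream peak of dpy-17 held 101 CPM and 104 CPM in H3K27ac, so the lower value was at the gene and not at that peak.

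For dpy-5, CPM were 145 with cco-1 RNAi and 167 with empty vector in H3K18ac, and 110 and 125 in H3K27ac. rol-6, whose dominant allele makes worms roll, held 71.2 CPM and 80.8 CPM in H3K18ac and 45.5 CPM and 62.3 CPM in H3K27ac. sqt-1 held 58.6 CPM and 76.6 CPM in H3K18ac and 49.1 CPM and 63.9 CPM in H3K27ac. All of these values were lower with cco-1 RNAi and none reached 1.5-fold. sqt-2 had an H3K27ac row only, with 69.6 CPM and 79.96 CPM. sqt-3 had no row of its own, and the peak over it, assigned to F23H12.13 at chrV:12352713-12354128, held 218 CPM and 296 CPM in H3K18ac, a fold of 0.738 (0.695 to 0.784), and 169 CPM and 202 CPM in H3K27ac. Of the genes in this group outside the selection rule, dpy-14 was lower in H3K27ac, with 18.7 CPM and 37.04 CPM.

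Strut collagens of the adult cuticle, whose loss gives fluid-filled blisters, were also lower in CPM. bli-1 held 39.3 CPM with cco-1 RNAi and 63.4 CPM with empty vector in H3K18ac, a fold of 0.620 (0.540 to 0.711), and 32.3 CPM and 47.9 CPM in H3K27ac, a fold of 0.676 (0.591 to 0.772), just short of the threshold. bli-2 held 44.6 CPM and 56.8 CPM in H3K18ac and 66.9 CPM and 77.7 CPM in H3K27ac. With bli-6, outside the selection rule, 1 of 3 strut genes was lower in H3K18ac and none in H3K27ac, against 13.1% and 21.9% of all genes. The adult collagen gene col-19, which marks the switch to the adult epidermis, held 151 CPM and 153 CPM in H3K18ac, a log2 ratio of -0.02, and 93.3 CPM and 103 CPM in H3K27ac, a log2 ratio of -0.15.

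**Figure D4:**
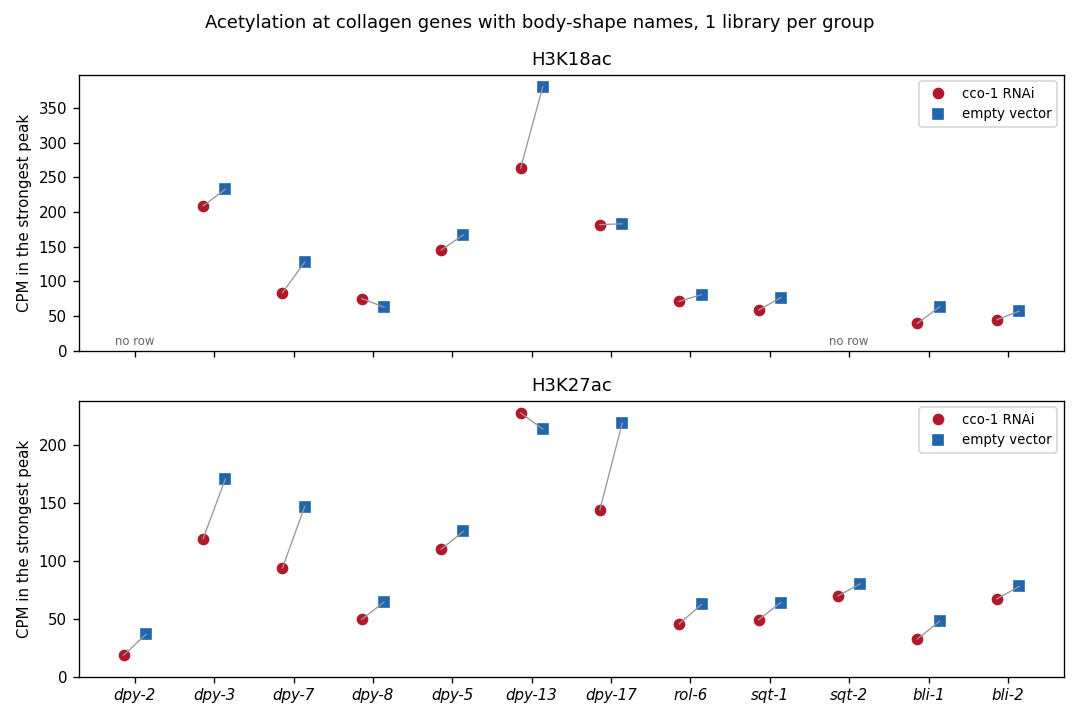
CPM of the strongest peak (vertical axis) at the 12 body-shape collagen genes with a row, with cco-1 RNAi (red circles) and with empty vector (blue squares), 1 library per group and 1 panel per mark. The largest gaps in H3K18ac are at dpy-13 (263 and 381 CPM) and dpy-7 (83.5 and 128 CPM), and in H3K27ac at dpy-17 (144 and 219 CPM), dpy-7 (93.6 and 147 CPM) and dpy-3 (118.9 and 170 CPM).

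The 18 genes at least 1.5-fold lower in H3K18ac were col-174, col-135, col-66, col-163, col-13, col-108, col-42, col-47, col-65, col-43, col-122, bli-1, col-131, col-45, col-51, dpy-7, col-125 and col-77, from the lowest fold up. The first pair rested on weak peaks: col-174 had 3.35 CPM with cco-1 RNAi and 8.32 CPM with empty vector, and col-135 had 6.82 CPM and 16.2 CPM. The col-174 peak lay 15 bp upstream of the gene start, and a further H3K18ac peak over col-174 was assigned to another feature. The H3K27ac peak over col-174, assigned to F46C8.1, held 43.9 CPM and 69.8 CPM, a fold of 0.629 (0.562 to 0.703). Among stronger peaks col-66, which RefSeq lists as a pseudogene, had the lowest fold, with 75.8 CPM and 148 CPM, 0.512 (0.465 to 0.563), in a peak over its end at chrI:11559940-11560662. col-163 followed with 69.3 CPM and 127 CPM, 0.547 (0.494 to 0.604), then col-108 with 92.7 CPM and 161 CPM and col-42 with 174 CPM and 291 CPM. Inside the threshold the nearest gene was col-77 at a log2 ratio of -0.60, and just outside it was col-81 at -0.58. Of the 111 collagen genes, 8 had the whole exact interval past 1.5-fold lower, against 5.06% of all genes.

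Higher H3K18ac was found at col-76 and col-120. col-76 (WBGene00000652) had 40.01 CPM with cco-1 RNAi and 21.3 CPM with empty vector at chrII:8204704-8205228, a fold of 1.87 (1.56 to 2.26), and a second peak inside the same gene had a fold of 1.61 (1.34 to 1.94). col-120 (WBGene00000694) had 110 CPM and 61.6 CPM in a peak over its end at chrIV:9260500-9261365, a fold of 1.79 (1.61 to 2.00). Its H3K27ac peak was assigned to another gene, Y11D7A.10, and held 135 CPM and 149 CPM, a fold of 0.911 (0.850 to 0.976). The nearest gene short of the threshold, col-90, had a log2 ratio of 0.57.

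In H3K27ac the 17 lower genes were col-121, col-56, dpy-2, col-63, col-75, col-78, col-60, col-165, col-153, col-116, col-131, col-36, col-163, col-152, dpy-7, col-99 and dpy-17. col-99 encodes a transmembrane collagen and not a cuticle collagen, and was taken by its symbol. The lowest folds were at weak peaks, with 3.28 CPM with cco-1 RNAi and 8.22 CPM with empty vector at col-121, and 6.21 CPM and 14.6 CPM at col-56. At col-63, 27.3 CPM and 53.8 CPM gave a fold of 0.506 (0.441 to 0.581), and at col-165, 41.5 CPM and 73.2 CPM gave 0.567 (0.506 to 0.635). dpy-17 was just past the threshold at a log2 ratio of -0.60, and col-170 just short of it at -0.57. Of the 116 collagen genes, 6 had the whole exact interval past 1.5-fold lower, against 10.2% of all genes.

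Higher H3K27ac was found at col-138 and col-69. col-138 (WBGene00000711) had 180 CPM with cco-1 RNAi and 100.2 CPM with empty vector in a peak over its start at chrIV:17182828-17183820, a fold of 1.80 (1.67 to 1.93). At col-69 the called peak lay 539 bp upstream of the start, with 136 CPM and 77.2 CPM, a fold of 1.76 (1.62 to 1.91), while a second peak inside the gene held 65.0 CPM and 89.4 CPM, a fold of 0.728 (0.662 to 0.800). The upstream and internal peaks of col-69 thus lay on opposite sides of 1. In H3K18ac the folds were 1.22 (1.12 to 1.33) upstream and 0.901 (0.827 to 0.981) inside. Short of the threshold, the nearest gene was col-76 at a log2 ratio of 0.47.

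Over the 104 collagen genes with both marks, the log2 ratio was higher in H3K27ac than in H3K18ac in 73 (70.2%), against 41.3% of 10058 genes. The median difference, H3K27ac minus H3K18ac, was 0.20 for collagen genes and -0.10 over all genes. Its 95% interval from counting error lay above 0 in 56 collagen genes (against 22.4% of all genes), below 0 in 21 (against 31.8% of all genes), and included 0 in 27. Differences past 1.5-fold were few in both directions, 8 above (7.69%, against 5.98% of all genes) and 8 below (7.69%, against 13.7%). Among genes of at least median peak strength in both marks, the difference was above 0 in 70 of 90 collagen genes (77.8%), against 50.8% of 5686 genes. The median difference there was 0.23, against 0.008. Matching the marks by overlapping peaks gave a median difference of 0.13 over 131 pairs at collagen genes, against -0.13 over all 14594 pairs.

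The levels of the marks ran in parallel while the changes did so less. In empty vector the H3K27ac CPM was lower than the H3K18ac CPM in 94 of 104 collagen genes (90.4%), with a median ratio of 0.657, against 62.6% and 0.837 over all genes. With cco-1 RNAi it was lower in 98 (94.2%), with a median ratio of 0.771, against 69.4% and 0.790 over all genes. Each mark is scaled to its own total, so these ratios compare places in the tables and not amounts of the marks. Across the 104 genes, the log2 levels in empty vector had a Pearson correlation of 0.96 (Spearman 0.96), against 0.82 over all genes. The log2 ratios had 0.33 (Spearman 0.30), against 0.59 over all genes. Genes are not independent replicates, and the marks share the labelled worm conditions and strong and weak loci.

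**Figure D5:**
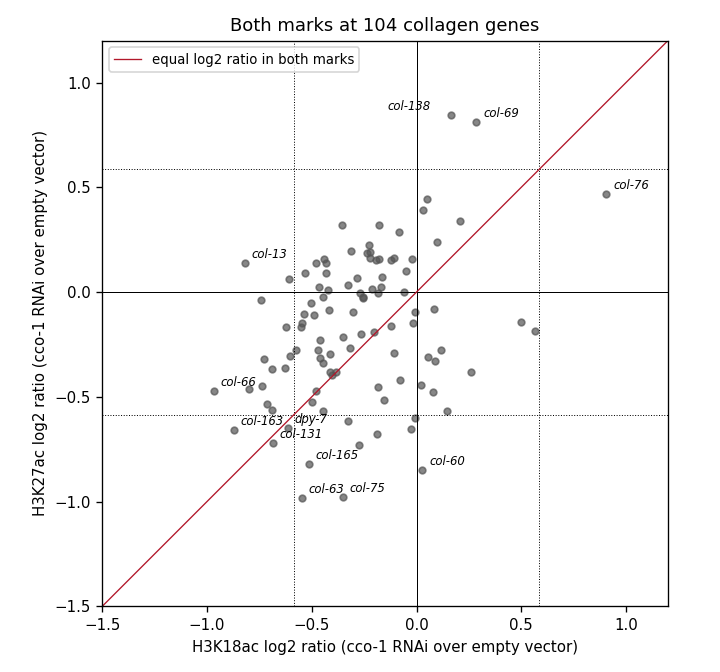
Log2 ratio, cco-1 RNAi divided by empty vector, in H3K27ac (vertical axis) against that in H3K18ac (horizontal axis), 1 point for each of 104 collagen genes, with dotted lines at 1.5-fold and a red line of equal ratios. Most points lie above the red line (73 of 104), and only dpy-7, col-131 and col-163 lie past 1.5-fold lower in both marks.

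Only 3 collagen genes, dpy-7, col-131 and col-163, were at least 1.5-fold lower in both marks, 2.88% of the 104 against 6.39% of all genes, and none was higher in both, against 2.84%. For dpy-7 the marks compare unlike regions. Its H3K18ac value leaves out the separate peak over the start, while its H3K27ac peak spans the start and the body. A further 13 of the 104 passed the lower threshold in H3K18ac and not in H3K27ac, against 5.53% of all genes, and 9 in H3K27ac and not in H3K18ac, against 12.1%, without a test of the difference. These shares of all genes include many weak peaks. Among genes of at least median peak strength in both marks, 3 of 90 collagen genes (3.33%) were lower in both, against 3.96% of 5686 genes. Lower in H3K18ac only were 12 of the 90, against 377 of the 5686, and in H3K27ac only 7, against 372. By sign, 57 of the 104 were below 0 in both (against 42.2% of all genes), 29 in H3K18ac only (against 10.4%) and 11 in H3K27ac only (against 19%), and 7 were above 0 in both (against 28.4%). col-131 held 43.2 CPM with cco-1 RNAi and 71.1 CPM with empty vector in H3K27ac, and 59.1 CPM and 95.01 CPM in H3K18ac. col-163 held 49.9 CPM and 78.9 CPM in H3K27ac, and 69.3 CPM and 127 CPM in H3K18ac.

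The 6 largest differences between marks were at col-13, col-60, col-90, col-72, col-42 and col-138. At col-13 the difference was 0.96 (0.59 to 1.32), from 23.03 CPM with cco-1 RNAi and 20.9 CPM with empty vector in H3K27ac and 20.4 CPM and 36.1 CPM in H3K18ac. col-60 gave -0.88 (-1.29 to -0.46), with 15.5 CPM and 28.0 CPM in H3K27ac and 18.4 CPM and 18.1 CPM in H3K18ac. At col-42, the strongest of the 6 without stress in H3K18ac, the difference was 0.70 (0.57 to 0.83), from 162 CPM and 167 CPM in H3K27ac and 174 CPM and 291 CPM in H3K18ac. The values were -0.75 at col-90, -0.71 at col-72 and 0.68 at col-138.

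Neighbouring collagen genes had similar ratios in some clusters and unlike ones in others. Collagen genes whose distance was at most 10 kb formed 14 clusters of 34 genes in H3K18ac and 12 clusters of 30 genes in H3K27ac. The SD of the log2 ratio within clusters was 0.24 for H3K18ac and 0.19 for H3K27ac, against 0.35 and 0.38 over all collagen genes. The latter values include the unclustered genes, so a special likeness of neighbours was not tested. In H3K18ac 5 of the 34 clustered genes and 13 of the 77 others were lower, against 13.1% of all genes, and in H3K27ac 0 of 30 and 17 of 86, against 21.9%. On chromosome I, col-50 and col-51 had H3K18ac log2 ratios of -0.55 and -0.62, and H3K27ac log2 ratios of -0.17 each. On chromosome V, col-159 and col-160 had H3K18ac log2 ratios of -0.18 each. The chromosome II cluster of col-17, col-20 and col-73 had medians of -0.08 in H3K18ac and 0.29 in H3K27ac. Wider clusters were col-79, col-39, col-80 and bli-1 on chromosome II, from -0.69 to 0.12 in H3K18ac, and dpy-7 with col-174 on chromosome X, at -0.61 and -1.31. The col-174 value is from its weak upstream peak. The chromosome X cluster of col-167, col-168, col-169 and col-170 ran from -0.48 to 0.08 in H3K18ac and from -0.57 to 0.14 in H3K27ac. By chromosome, the median H3K18ac log2 ratio of collagen genes was below that of all genes on each of the 6 chromosomes, from -0.48 against -0.08 on I to -0.14 against 0.05 on X. In H3K27ac it was above that of all genes on III, IV and V, and below it on I, II and X.

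Lists of genes that make, regulate or accompany cuticle collagens are read against all genes, of which 8.04% were higher and 13.1% lower in H3K18ac, and 8.72% and 21.9% in H3K27ac. The list of collagen processing genes, mostly enzymes with some secretory and other genes, had 2 higher and 1 lower of 11 measured of 17 in H3K18ac, at a median log2 ratio of 0.15. In H3K27ac it had 1 higher and 1 lower of 9, at a median of 0.11. phy-4, a prolyl 4-hydroxylase gene, was lower in both marks, with 338 CPM with cco-1 RNAi and 598 CPM with empty vector in H3K18ac and 241 CPM and 367 CPM in H3K27ac. Its peak lay upstream of the gene in both marks. In the same list dpy-18, phy-2 and phy-3 had H3K18ac folds of 1.10, 0.772 and 0.830, none past the threshold. The higher pair in H3K18ac were let-767, a steroid and fatty acid dehydrogenase gene (122 and 71.0 CPM), and sec-23, a secretory coat component (58.1 and 36.8 CPM). bli-4, a procollagen-cutting protease gene, was higher in H3K27ac (33.1 and 15.7 CPM).

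Regulators of the moulting cycle and of collagen genes had 2 higher and 1 lower of 13 measured of 24 in H3K18ac, at a median of -0.08. In H3K27ac 6 of 16 were higher, against 8.72% of all genes, and 3 lower, against 21.9%, at a median of 0.45. blmp-1, a zinc finger factor of the moulting rhythm, was higher in both marks, with 138 CPM with cco-1 RNAi and 79.9 CPM with empty vector in H3K18ac and 145 CPM and 70.2 CPM in H3K27ac. skn-1, a stress factor that acts on collagen genes, was higher in H3K18ac (73.0 and 40.5 CPM). lin-42, the period-like moulting timer, was higher in H3K27ac (128 and 70.6 CPM), as were the stage timing genes lin-14 (28.9 and 8.65 CPM) and lin-28 (45.5 and 28.2 CPM) and the Smad genes sma-2 (8.45 and 5.28 CPM) and sma-3 (15.8 and 5.11 CPM), which act in a growth factor pathway of body size. The epidermal GATA factor gene elt-1 was lower in both marks, with log2 ratios of -0.77 in each. nhr-23, the nuclear receptor that drives moulting genes, was lower in H3K27ac (108 and 166 CPM), and so was bed-3, a zinc finger gene of the moulting cycle (7.94 and 17.2 CPM).

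Other cuticle and moulting proteins, such as zona pellucida proteins and the moulting protease inhibitor gene mlt-11, had 1 higher and 2 lower of 13 measured of 32 in H3K18ac, at a median of -0.27. In H3K27ac 0 of 15 were higher, against 8.72% of all genes, and 8 lower, against 21.9%, at a median of -0.60. The list was weak in H3K27ac, at a median of 20.8 CPM in empty vector, and 35.7% of all genes below median peak strength were lower. mlt-11 was lower in both marks (log2 ratios -0.73 and -0.63), and lpr-1 was higher in H3K18ac (0.59) while let-653 was lower (-1.58). The others lower in H3K27ac were noah-1 (-1.78), dpy-6 (-1.51), nas-37 (-1.34), noah-2 (-0.82), qua-1 (-0.68), cut-6 (-0.61) and let-805 (-0.60). The most extreme of these ratios rest on weak peaks. In H3K27ac noah-1 had 70 counts with cco-1 RNAi and 240 with empty vector, dpy-6 had 39 and 111, and nas-37 had 83 and 209. In H3K18ac let-653 had 30 and 83. Of the collagens outside the cuticle, emb-9 of the basement membrane had log2 ratios of -0.58 in H3K18ac and -1.07 in H3K27ac, and col-99 had -0.33 and -0.61.

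Markers of the hypodermis other than collagens were, like most collagen genes, lower in sum with cco-1 RNAi; the shares of all genes called are those given for the lists above. In H3K18ac 4 of 8 had a row, elt-1 was lower and none higher, and they summed to 262 CPM with cco-1 RNAi and 361 CPM with empty vector. In H3K27ac 5 had a row, 3 were lower (elt-1, nhr-23 and dpy-6, which stand in the lists above too) and none higher, and they summed to 218 CPM and 320 CPM. Germline markers summed to 163 CPM and 195 CPM over 4 of 6 in H3K18ac, with glh-2 lower, and to 298 CPM and 486 CPM over 4 in H3K27ac, with mex-5, oma-2 and puf-5 lower. Sperm markers summed to 127 CPM and 160 CPM in H3K18ac over 2 of 4, and to 105 CPM and 119.5 CPM in H3K27ac. Intestinal markers summed to 266 CPM and 220 CPM over 2 of 6 in H3K18ac, and to 342 CPM and 206 CPM over 4 in H3K27ac, with act-5 higher. Body wall muscle markers summed to 387 CPM and 503 CPM over 3 of 5 in H3K18ac, with unc-54 lower, and to 324 CPM and 359 CPM over 4 in H3K27ac, with hlh-1 lower. Neuron markers summed to 244 CPM and 180 CPM over 5 of 5 in H3K18ac, with snb-1 and unc-119 higher, and to 254 CPM and 181 CPM over 3 in H3K27ac, with snb-1 higher. No marker with a row was at 0, a marker without a row was not read as 0, and the part of cell makeup or stage in the collagen values was not tested.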

How the data were processed

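The authors deposited 1 table per mark with whole-number counts per peak for cco-1 RNAi and for empty vector, and with the nearest gene, per the file headers. They were treated as raw counts; rounding of a normalized unit could not be checked. The submitters' processing notes list the builds ce11 and WBcel235 and the tools Bowtie2 2.3.5, SAMtools 1.4.1 and MACS2 2.1.2; for the counting program, filters and use of inputs nothing is stated in the sources used here. Counts are not corrected for input, and peak calling decides which regions can be seen.

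Repeated lines (119 in H3K18ac, 111 in H3K27ac) and mitochondrial peaks (5 and 3) were left out of totals, leaving 17207 and 17763 peaks, the smallest count being 5 and 18. CPM, ratios without a pseudocount and exact 95% intervals were computed with Python 3.11.15 and scipy 1.17.1, and TMM factors with edgeR 4.0.16. The interval code was tested on simulated data. Gene names and bounds for the account of members came from RefSeq (WBcel235), in which all 123 symbols matched. Differences between marks have 1.96 standard errors from counts.

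Members, lists and tests were chosen with earlier results of these data known. Named were the 14 body-shape genes, the 10 strongest without stress per mark, all past 1.5-fold, the 6 largest differences between marks, and listed genes past 1.5-fold; others named were chosen after their values were seen. The input libraries were not analysed here.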

Additional observations from a re-analysis of the deposited data

How the results depend on the processing

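No paired analysis was possible because each group has 1 library, and for the same reason no replicate could be left out. For H3K18ac (18 lower, 2 higher), a 2-fold threshold left 2 lower and 0 higher, unscaled counts, which add 0.11 to every log2 ratio, gave 10 lower and 4 higher, peaks of at least median strength gave 1 higher, and 8 lower genes had the whole interval past 1.5-fold. For H3K27ac (17 lower, 2 higher), a 2-fold threshold left 2 lower and 0 higher; centring on the median of all peaks, a shift of 0.19, gave 8 lower and 4 higher with a median of 0.028; TMM gave 8 and 4 with a median of 0.011. The pseudocount gave 11 lower, peaks of at least median strength 10, whole intervals 6, and summed peaks 1 higher. For the 2-fold threshold, unscaled counts, centring, TMM, the pseudocount and summed peaks, the share of all genes is not given here. Those counts are therefore not set against a background. The strongest peak over the RefSeq gene, chosen after seeing the data, gave 28 lower (against 18.7% of all coding genes with a peak) and 1 higher, and turned col-69 to -0.46, because its internal peak replaces the upstream one. The H3K18ac median stayed below 0, the median difference between marks above 0, and 78.4% to 86.5% of collagen genes lay above the median gene in empty vector, under the alternatives run for each. Depth limits the weakest peaks, such as col-174 and col-121.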

Other observations

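Some collagen genes without a row of their own in a mark lay under peaks assigned to a neighbour. These peaks, picked after their values were seen, enter the counts over RefSeq genes above and none of the counts by the authors' assignment. The peak over col-172, assigned to F38B6.4, held 194 CPM with cco-1 RNAi and 123 CPM with empty vector in H3K18ac, a fold of 1.58 (1.47 to 1.71), and 103 CPM and 87.8 CPM in H3K27ac, a fold of 1.17 (1.08 to 1.28). The peak over col-37, assigned to ZK863.10, held 99.2 CPM and 180 CPM in H3K18ac, a fold of 0.551 (0.506 to 0.599), and 76.3 CPM and 101 CPM in H3K27ac, a fold of 0.756 (0.692 to 0.826). For sqt-2 the H3K18ac peak over the gene, assigned to C01B12.8, held 132 CPM and 109 CPM, a fold of 1.21 (1.11 to 1.32), while its H3K27ac row had a fold of 0.871 (0.791 to 0.958). The H3K27ac peak over col-135, assigned to 21ur-15141, held 21.8 CPM and 57.5 CPM, a fold of 0.380 (0.327 to 0.440), beside an H3K18ac fold of 0.422 (0.306 to 0.575) in a weaker peak.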
